A study of Mus musculus with 3 samples.

Results

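The genes described here encode the machinery that copies DNA: 17 genes of origin licensing and firing, 21 genes of the replication fork with its polymerases and chromatin assembly, and 4 genes that make nucleotides for DNA. These 42 genes were picked by name from 27271 gene labels on the array, with earlier results of these data known. Each was found through a probe's gene name, and 3 of them only through an older name, with Orc1 listed as Orc1l, Cdc45 as Cdc45l and Gins2 as 4833427B12Rik. All 42 had a probe well above background on all 3 arrays.

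Cy3-labelled total RNA of 3 mouse samples was read on 1-colour Agilent arrays, with a single array for each sample. The first was of embryonic fibroblasts (MEF) labelled p53-null, another of MEF described in the series design as p53 wt (wild type), and the third of embryonic stem (ES) cells. Every sample carried the Nanog-GFP reporter, in which a green fluorescent protein reads out the pluripotency gene Nanog. The series set p53-null MEF and ES cells each beside MEF, in work on how p53 bears on reprogramming to induced pluripotent stem cells. The labels give no passage, embryo age, embryo sex or culture density, and do not say which part of the p53 gene was removed.

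Before S phase, the origin recognition complex, Cdc6 and Cdt1 load the Mcm2 to Mcm7 helicase onto DNA, and geminin blocks Cdt1 so that origins fire once per cycle. The kinase Cdc7 with its activator Dbf4 then lets Cdc45 and the GINS complex join the helicase, and polymerases, sliding clamp, clamp loader and RPA form the fork. Most of these genes are textbook targets of E2F transcription factors, which the retinoblastoma proteins hold in check until a cell commits to divide. In fibroblasts p53 induces the CDK inhibitor Cdkn1a, which keeps the retinoblastoma proteins active, whereas ES cells spend much of their short cycle in S phase.

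Values are given as scaled signal, which is the processed spot intensity with the 75th percentile of each array set to 1000. That percentile was 1040 units in p53-null MEF, 834 in ES cells and 829 in MEF. Between 26198 and 27954 of 43379 spots per array were well above background, and no spot was saturated. Signals were compared between arrays for the same probe, and never between genes, because probes differ in brightness. With 1 array per group there was no test, and the errors given are those of the scanner software's error model (about 0.20 on the log2 scale for each difference), which hold no biological spread. A difference of at least 2-fold was counted. The p53-null MEF array lay on a slide of its own and the ES cell and MEF arrays shared the other, so slide and genotype cannot be told apart. Of all genes, Xist had the highest log2 value in p53-null MEF against MEF (8.90), and the part of embryo sex in the results was not tested. The scaled signal of Trp53, the p53 gene, was 54.0 in p53-null MEF, 5877 in ES cells and 1574 in MEF, and that of its target Cdkn1a was 322, 628 and 16259. A second Trp53 probe, also well above background on all arrays, gave 250, 364 and 691, so there the log2 difference of p53-null MEF from MEF was -1.46 where the brighter probe gave -4.87, and ES cells lay below MEF (-0.92) rather than above it (1.90). Fibroblast markers were well above background for 10 of 10 genes in both fibroblast samples and for 9 of 10 in ES cells, all but Lum, with a summed scaled signal of 666400 in MEF, 452819 in p53-null MEF and 14882 in ES cells. ES cell markers were well above background for 8 of 8 genes in ES cells, 4 in MEF and 2 in p53-null MEF, with sums of 719519, 887 and 326; Pou5f1, Nanog, Zfp42 and Esrrb were not well above background in either fibroblast sample. Of 8 macrophage markers, 6 were well above background in MEF and 4 in each of the other samples, with a summed scaled signal of 2737 in MEF, 331 in p53-null MEF and 787 in ES cells. Lyz2 alone made up 2390 of the sum in MEF. The markers did not go 1 way: Csf1r, Adgre1 and Tyrobp were well above background only in MEF (scaled signals of 47.4, 15.7 and 40.5), Ptprc only in p53-null MEF (35.9) and Itgam only in ES cells (50.9), while Cd68 was highest in ES cells (559 against 175 in MEF). The part of such cells in the results was not tested.

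The promoters of these genes are shown first. The genes were picked by name and not by promoter letters. Most are textbook E2F targets, though, so E2F letters are not a feature independent of that choice. Windows of 300 bases, from 250 before to 50 after the gene start, were read from RefSeq (build GRCm38.p6) for the 35 members listed there. Both strands were searched for 4 strings of the E2F site, TTTCCCGC, TTTCGCGC, TTTGCCGC and TTTGGCGC. At least 1 of them stood in the window of 13 of 35 members (37.1%), against 704 of 27025 genes (2.60%) and 575 of 17492 protein-coding genes (3.29%). The stretches below, on the strand of each gene and in build GRCm38.p6, are those with a match before the start, with the matching bases in capitals. They lie at chr1:128359730-128359830 (minus strand) for Mcm6, chr8:75109341-75109382 (plus) for Mcm5, chr5:138172026-138172063 (minus) for Mcm7, chr11:98907998-98908035 (plus) for Cdc6, chr4:108579412-108579449 (plus) for Orc1, chrX:93632271-93632308 (minus) for Pola1, chr5:151651209-151651233 (minus) for Rfc3 and chr8:95633503-95633540 (plus) for Gins3.
Mcm6: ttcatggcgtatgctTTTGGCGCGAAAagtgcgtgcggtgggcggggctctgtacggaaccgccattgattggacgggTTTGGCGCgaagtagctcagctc
Mcm5: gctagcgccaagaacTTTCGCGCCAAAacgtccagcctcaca
Mcm7: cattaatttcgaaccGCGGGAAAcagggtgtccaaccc
Cdc6: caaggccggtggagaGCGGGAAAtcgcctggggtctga
Orc1: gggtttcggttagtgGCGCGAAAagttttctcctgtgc
Pola1: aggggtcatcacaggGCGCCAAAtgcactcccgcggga
Rfc3: agtgacgtcgcacgcTTTCGCGCtc
Gins3: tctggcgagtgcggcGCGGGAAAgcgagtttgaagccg
In Mcm5 the capitals are overlapping matches on opposite strands, and so is the first run in Mcm6. The 13 windows held 19 matches, 12 of them within 100 bases of the start and 11 of them upstream of it. In Cdt1, Mcm3, Lig1, Pold1 and Pole2 every match lay after the start.

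Other promoter letters were common among all genes too. The CCAAT box (CCAAT on either strand), the site of the factor NF-Y, stood in the windows of 21 of 35 members (60.0%), against 41.1% of all genes and 42.3% of protein-coding genes. The Sp1 box (GGGCGG) stood in 77.1% of members, 38.2% of all genes and 49.2% of protein-coding genes. The CHR element of cell cycle genes (TTTGAA or TTCGAA) stood in 25.7% of members against 21.7% of all genes. A pair of p53 half-sites stood in 0 of 35 members and in 20 of 27025 genes (0.0740%). A match is a description of these letters, and its absence says nothing of a factor. In p53-null MEF against MEF the median log2 difference was 1.91 over the 13 members with the E2F letters and 1.88 over the 22 without them, and in ES cells against MEF the median was 2.68 without them and somewhat larger with them.

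**Figure D1:**
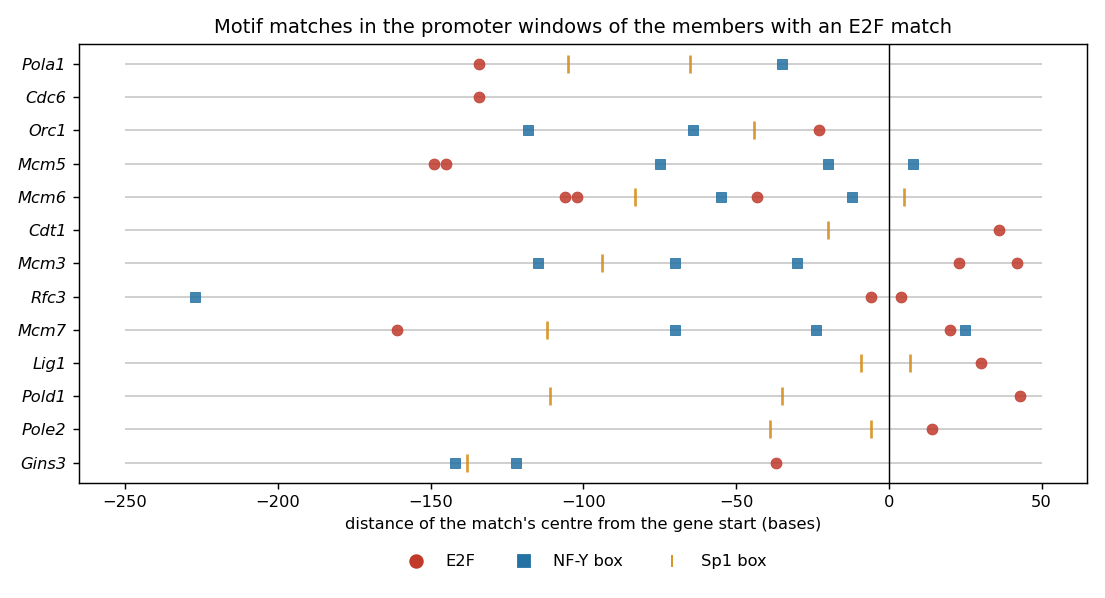
Positions of motif matches in the promoter windows of the 13 members with E2F letters, as distance in bases from the gene start (vertical line), with the members ordered from the largest (top) to the smallest log2 difference of p53-null MEF from MEF. Circles are E2F matches, squares NF-Y boxes and bars Sp1 boxes; of the 19 E2F matches 11 lie upstream of the start and the others at or after it.

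Against MEF, p53-null MEF had higher signal for all 42 replication genes, from 0.28 (Pola2) to 3.72 (Cdc7) on the log2 scale, with a median of 1.87 (3.67-fold). At least 2-fold higher were 36 members (85.7%), and 0 were at least 2-fold lower. Over 17276 genes with a value in this comparison the median was 0.03; 18.5% passed 2-fold upward and 16.6% downward. Licensing and firing genes had the highest median of the roles, at 2.23, with 16 of 17 at least 2-fold higher. Fork and polymerase genes had a median of 1.71 with 17 of 21, and nucleotide genes 1.34 with 3 of 4. The members nearest the 2-fold line were Gins2 at 1.01 and Fen1 at 0.96. Proliferation markers moved with these genes: Mki67 had a scaled signal of 36836 in p53-null MEF and 2882 in MEF, and the log2 difference was 2.95 for the cyclin gene Ccna2 and 2.99 for Ccne2; their part in the result was not tested. In RNA from whole cultures, a larger share of cells in S phase and more RNA per cell cannot be told apart.

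**Figure D2:**
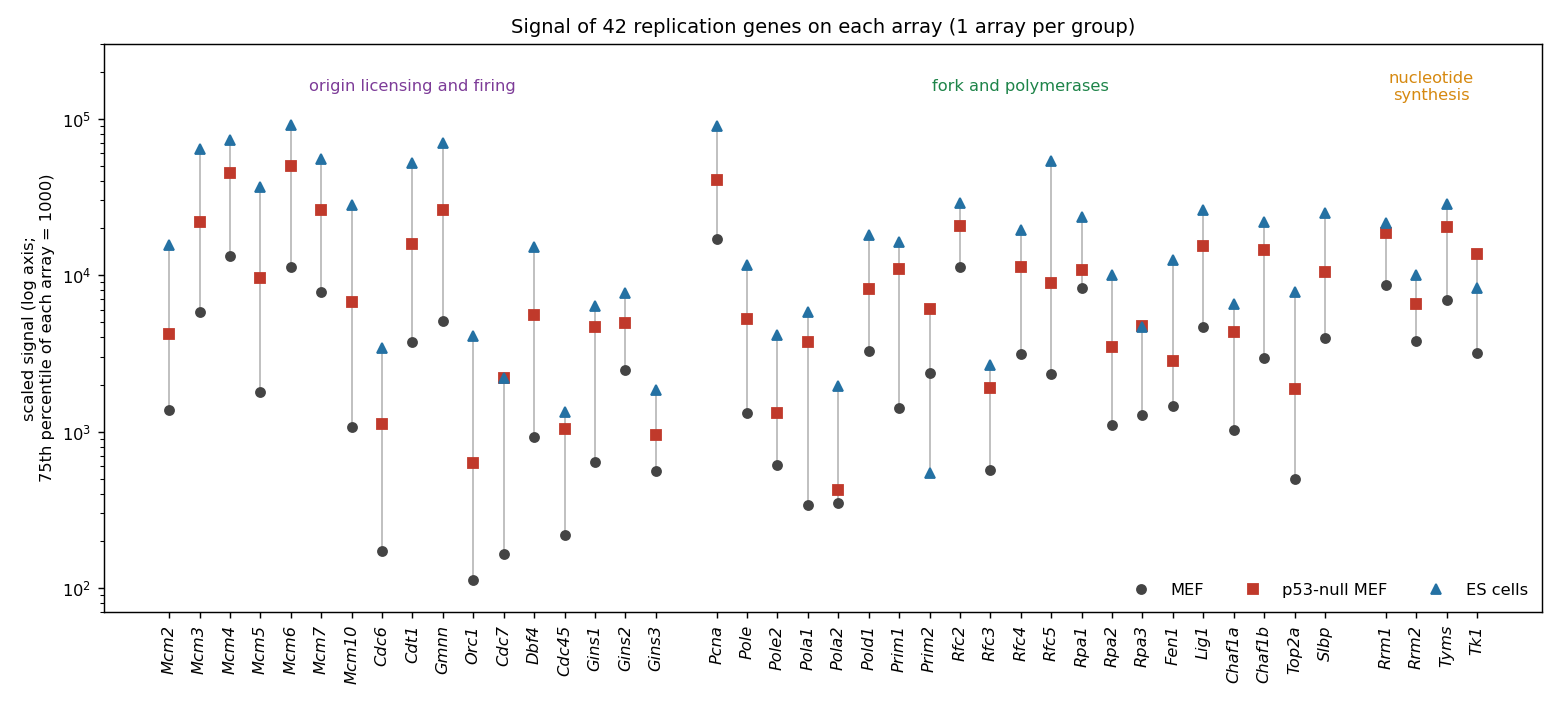
Scaled signal of the 42 replication genes on each array (log axis; the 75th percentile of each array is 1000), grouped by role; circles are MEF, squares p53-null MEF and triangles ES cells, with 1 array per group. MEF is the lowest of the arrays for every member but Prim2, whose signal is 543 in ES cells; the order of ES cells and p53-null MEF turns in most members when arrays are scaled on spike-ins.

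Mcm2 to Mcm7 are the 6 subunits of the ring that unwinds DNA, and their differences between p53-null MEF and MEF lay between 1.60 (Mcm2) and 2.42 (Mcm5). Those between ES cells and MEF spread wider, from 2.47 (Mcm4) to 4.36 (Mcm5). Mcm2 had a scaled signal of 4187 in p53-null MEF, 15691 in ES cells and 1379 in MEF. For Mcm5 the signals were 9559, 36742 and 1786 in the same order, so that p53-null MEF lay 5.35-fold above MEF and ES cells 20.6-fold. Mcm6, whose promoter has 3 E2F matches, had signals of 49738, 90406 and 11277. All 6 subunits were lowest in MEF. A second probe for Mcm3 gave 2.35 where the brighter gave 1.91, both higher in p53-null MEF.

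The loading factors Orc1, Cdc6 and Cdt1, counted together with the Cdt1 inhibitor Gmnn, overlapped the helicase subunits. As a group they had a higher median difference from MEF, 2.42 against 1.84 in p53-null MEF and 4.06 against 3.23 in ES cells. Cdt1, which brings the helicase to origins, had signals of 15741 in p53-null MEF, 52204 in ES cells and 3714 in MEF. Its inhibitor geminin (Gmnn) had signals of 26098, 69583 and 5062, so the loader and its brake were higher together, by 2.08 and 2.37 in p53-null MEF and by 3.81 and 3.78 in ES cells on the log2 scale. Orc1, the subunit of the origin recognition complex whose level varies with the cycle, was read by a probe at chr4:108110099-108111006 (mm8). Its signal was 628 in p53-null MEF, 4094 in ES cells and 113 in MEF, which put p53-null MEF 5.56-fold and ES cells 36.3-fold above MEF, the largest difference of any member in that comparison. Cdc6, the ATPase that works beside it, had 1115, 3433 and 173. Its 2 probes differed for ES cells: the dimmer one gave 360 in p53-null MEF, 332 in ES cells and 82.9 in MEF. At the brighter probe ES cells lay 4.31 above MEF on the log2 scale, and the difference at the dimmer probe minus that at the brighter was -2.31. For p53-null MEF the probes were closer, at 2.69 and 2.12 above MEF.

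Among firing factors Cdc7 had the largest difference of all members between p53-null MEF and MEF. Its brightest probe, at chr5:107224379-107224438 (mm8), gave 2188 in p53-null MEF, 2201 in ES cells and 166 in MEF, which is 13.2-fold for p53-null MEF (log2 difference 3.72 ± 0.21, error model). Another Cdc7 probe, at chr5:107223571-107223630, gave 319, 555 and 51.6, a difference of 2.63, so the probes of this gene disagreed by 1.09. With the mean over its 3 probes, one of them dim, the difference was 2.32. Its activator Dbf4 had 5601 in p53-null MEF, 15093 in ES cells and 921 in MEF. The other 2 Dbf4 probes were not well above background in MEF, and between ES cells and p53-null MEF they gave log2 differences of 2.33 and -0.21 where the brightest gave 1.43. The kinase and its activator were both far lower in MEF.

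The factors that join the active helicase were less alike. Mcm10, needed to start unwinding, had 6762 in p53-null MEF, 27931 in ES cells and 1068 in MEF. Cdc45, the helicase cofactor, had 1034, 1334 and 220, a 4.70-fold difference between the fibroblast samples. Within the GINS complex, whose subunits act as a unit, Gins1 had 4649, 6329 and 642 (7.24-fold for p53-null MEF), whereas Gins2 had 4959, 7740 and 2458 (2.02-fold) and Gins3 had 948, 1843 and 557 (1.70-fold). Gins1 kept its difference at a second probe, at 2.66 against 2.86 on the log2 scale. The signals of these 3 subunits were lowest in MEF, but their differences from it spanned 0.77 to 2.86 in p53-null MEF and 1.65 to 3.30 in ES cells. The remaining subunit, Gins4, is outside the list. It lay 0.19 ± 0.20 above MEF in p53-null MEF, within 2 errors of no difference, and 1.91 above it in ES cells.

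**Figure D3:**
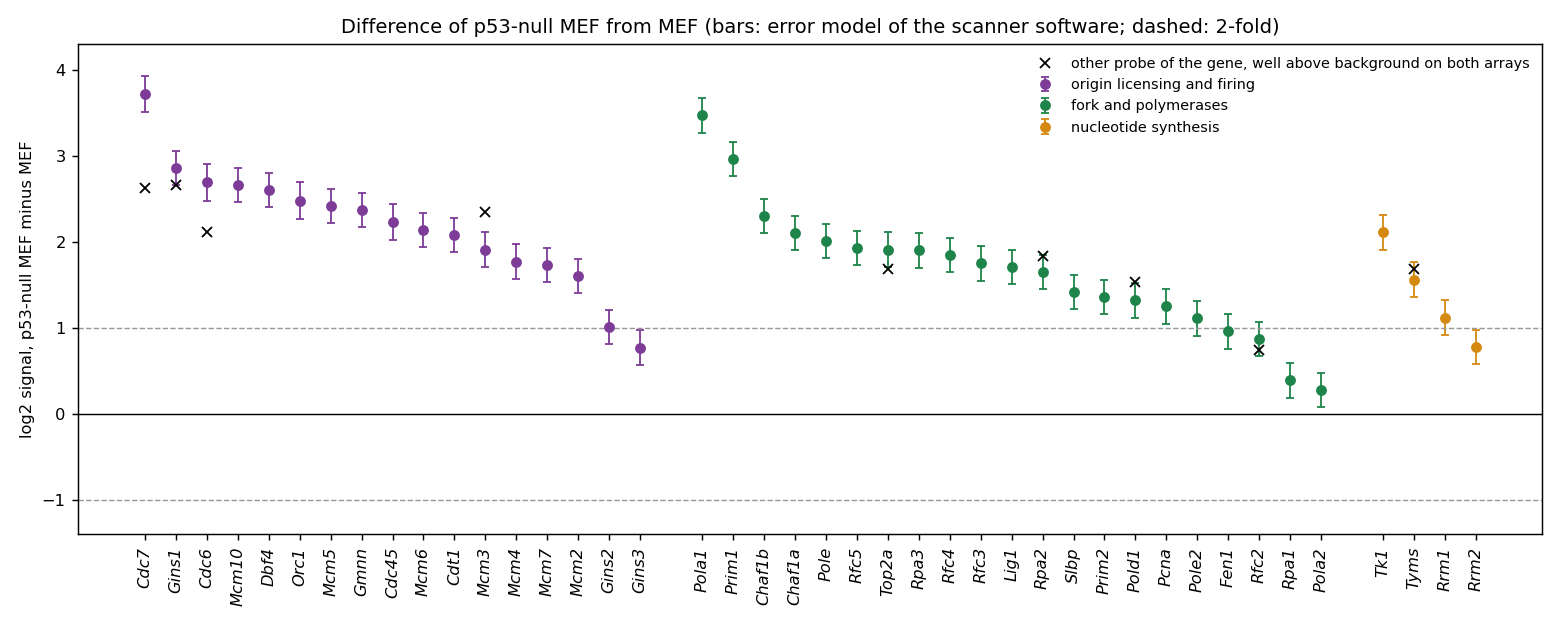
Log2 difference of p53-null MEF from MEF for each of the 42 members, sorted within role; bars are the scanner software's error model, dashed lines mark 2-fold, and crosses are other probes of the same gene that were well above background on both arrays. All members lie above 0 and 36 lie above the upper dashed line; Pola2 and Rpa1 lie within 2 errors of 0.

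At the fork, polymerase alpha with primase makes the primers. Among complexes counted by their listed members only, its 4 subunits had the widest spread, from 0.28 to 3.47 between p53-null MEF and MEF. With subunits outside the list, other complexes spread about as widely there. Polymerase delta ran from -1.37 (Pold4) to 1.90 (Pold3), and the origin recognition complex from -0.81 (Orc5) to 2.48 (Orc1). Pola1, the catalytic subunit of polymerase alpha, was read at chrX:89557569-89557628 (mm8), with signals of 3765 in p53-null MEF, 5837 in ES cells and 340 in MEF. That is 11.1-fold for p53-null MEF (3.47 ± 0.20) and 17.2-fold for ES cells. Prim1, the catalytic primase subunit, had 10991, 16238 and 1413, or 7.78-fold for p53-null MEF. The accessory subunit Pola2, read at chr19:5946484-5946543 (mm8), had 423 in p53-null MEF, 1963 in ES cells and 349 in MEF. Its difference between the fibroblast samples was 0.28 ± 0.20, within 2 errors of no difference, while ES cells lay 5.62-fold above MEF. Prim2, the other primase subunit, had 6090 in p53-null MEF, 543 in ES cells and 2377 in MEF.

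Prim2 was the only member with a lower signal in ES cells than in MEF, by -2.13 ± 0.20 on the log2 scale (4.38-fold), at a probe at chr1:33398434-33398493 (mm8). A second probe, at chr1:33558509-33558568, carried an accession as its name and was matched to Prim2 in the other design version. It was dim, with 18.6 in ES cells, where it was well above background, and 10.2 in p53-null MEF and 3.88 in MEF, where it was not. The dim probe thus gave no measured difference between ES cells and MEF, and with the mean over both probes the difference was -0.91. The other 3 subunits of the complex were each at least 5.62-fold above MEF in ES cells.

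Polymerases epsilon and delta copy the leading and lagging strands. Pole had signals of 5280 in p53-null MEF, 11643 in ES cells and 1307 in MEF, and its partner Pole2 had 1323, 4173 and 613. The delta subunit Pold1 had 8151, 18043 and 3268. All 3 were at least 2-fold above MEF in both other samples, by 1.11 to 2.01 in p53-null MEF and 2.46 to 3.16 in ES cells. Pcna, the sliding clamp that holds these polymerases on DNA, was printed at 10 spots per array. Its mean intensity over spots was 42120 ± 966 units in p53-null MEF (SD, 10 spots), 75385 ± 1890 in ES cells (8 spots after 2 were left out as outliers) and 14083 ± 539 in MEF (10 spots). The spread between spots was 2.29% to 3.83%, far below the 2.38-fold difference of p53-null MEF from MEF. Those spots share an RNA sample and an array, so this spread is technical.

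The clamp loader, which opens Pcna around DNA, was measured through Rfc2 to Rfc5. Rfc3, Rfc4 and Rfc5 lay 1.75 to 1.93 above MEF in p53-null MEF, and Rfc2 lay 0.87 above it, with 0.74 at a second probe. In ES cells the subunits parted: Rfc5, read at chr5:117640264-117640323 (mm8), had 8869 in p53-null MEF, 53302 in ES cells and 2333 in MEF, a difference of 4.51 from MEF, while Rfc2, Rfc3 and Rfc4 lay between 1.37 and 2.64. RPA coats the unwound strand, and its large subunit Rpa1, read at chr11:75116753-75116812 (mm8), had 10817, 23350 and 8267. In p53-null MEF that is 0.39 ± 0.20 above MEF, again within 2 errors of no difference. Rpa2 had 3474, 10086 and 1104, and Rpa3 had 4739, 4652 and 1269, so these subunits lay 1.65 and 1.90 above MEF in p53-null MEF.

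Fen1, the nuclease that trims Okazaki fragments, had 2831 in p53-null MEF, 12452 in ES cells and 1458 in MEF, which left it just under 2-fold in p53-null MEF and at 8.54-fold in ES cells. Lig1, the ligase that seals those fragments, had 15255, 26103 and 4649. Chaf1a and Chaf1b, subunits of the factor that places histones on new DNA, lay 2.10 and 2.30 above MEF in p53-null MEF and 2.69 and 2.90 in ES cells. The histone mRNA binding protein gene Slbp lay 1.42 and 2.67 above MEF in the same order. Topoisomerase gene Top2a, which untangles the copies, had 1881, 7763 and 500, and its second well-lit probe gave 1.69 where the brighter gave 1.91 in p53-null MEF.

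Of the 3 roles, nucleotide synthesis had the smallest median difference between the fibroblast samples, although single fork genes such as Pola2 and Rpa1 lay lower. Ribonucleotide reductase makes deoxynucleotides, and its large subunit gene Rrm1 had 18691 in p53-null MEF, 21431 in ES cells and 8588 in MEF, while the small subunit gene Rrm2 had 6515, 9976 and 3800. In p53-null MEF they lay 2.18-fold and 1.71-fold above MEF. Thymidylate synthase (Tyms) had 20390, 28579 and 6907, with differences of 1.56 and 1.69 at its 2 bright probes. Thymidine kinase (Tk1), which salvages thymidine, had 13684 in p53-null MEF, 8240 in ES cells and 3173 in MEF. Tk1 was thus higher in p53-null MEF than in ES cells, by 1.66-fold, and higher there under each scaling tried; with spike-ins, but not with the 75th percentile, the other 3 nucleotide genes were too.

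Against MEF, ES cells had higher signal for 41 of 42 members, all of them at least 2-fold, and Prim2 was the 1 member at least 2-fold lower. The median was 2.79 (6.93-fold). The background here was wide: of 18602 genes with a value, whose median was 0.20, 32.7% passed 2-fold upward and 27.2% downward. By role the medians were 3.51 for licensing and firing, 2.67 for the fork and 1.38 for nucleotide genes, the same order of roles as in p53-null MEF. At least 4-fold above MEF were 33 members in ES cells and 17 in p53-null MEF. Of all genes with a value, 3114 of 18602 passed 4-fold upward in ES cells and 933 of 17276 in p53-null MEF. Both comparisons use the same MEF array. The member nearest the 2-fold line was Rrm1, at 1.32. Mki67 had 31993 in ES cells, 3.47 above MEF.

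**Figure D4:**
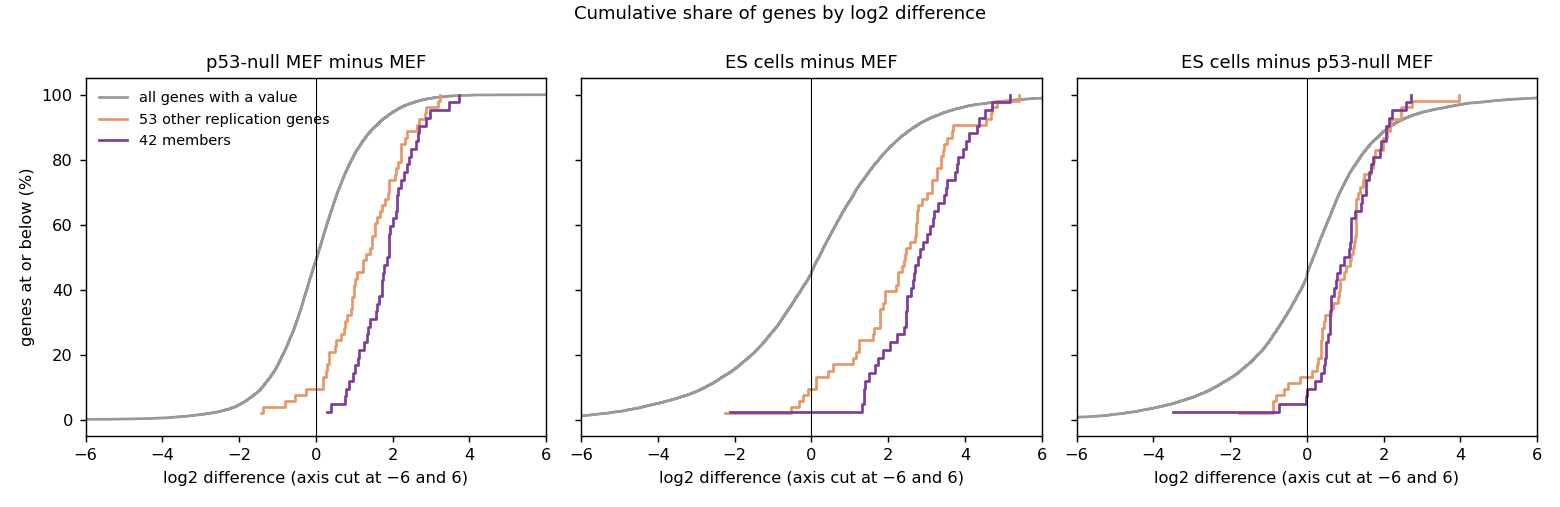
Share of genes (%) at or below each log2 difference, for all genes with a value, 53 other replication genes and the 42 members, in p53-null MEF minus MEF, ES cells minus MEF and ES cells minus p53-null MEF. Member medians are 1.87, 2.79 and 1.02 against 0.03, 0.20 and 0.17 for all genes; scaling on spike-ins moves the third member median to -0.68 and that of all genes to -1.46.

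Between ES cells and p53-null MEF the sign depended on scaling. With the 75th percentile scaling, 21 of 42 members passed 2-fold upward in ES cells and 1 downward (median 1.02), whereas with scaling on the spike-in spots 1 passed it upward and 16 downward (median -0.68). Of 18282 genes with a value, 26.8% passed it upward and 23.7% downward, which became 6.57% and 61.2% with spike-ins. The spike-in scaling moved the median of all genes as well, from 0.17 to -1.46. The members lay 0.85 above the median of all genes under the first scaling and 0.78 above it under the second. Scaling on spike-ins takes the same amount from every gene of an array, so by construction such a gap hardly changes. The proliferation markers lay below the median of the members here, but within their range. Under the 75th percentile scaling Mki67 was at -0.20 (0.25 at a second probe), Ccna2 at 0.24 and Ccne2 at -0.70. With spike-ins these 3 markers were at -1.90, -1.46 and -2.40. Of the members, 39 lay above 0 under the 75th percentile scaling, and Rpa3 (-0.03), Tk1 (-0.73) and Prim2 (-3.49) lay below it.

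The licensing genes led this comparison and the nucleotide genes were last, with medians of 1.41 for licensing and firing, 1.11 for the fork and 0.34 for nucleotide synthesis under the 75th percentile scaling and of -0.28, -0.59 and -1.36 with spike-ins. Orc1 was 6.52-fold higher in ES cells than in p53-null MEF (2.71 ± 0.20) and Rfc5 6.01-fold (2.59 ± 0.20), and both stayed higher with spike-ins, at 1.01 and 0.89. In all, 9 members kept a higher signal in ES cells under the spike-in scaling, among them Pola2 (2.21, or 0.51 with spike-ins), Fen1 (2.14, or 0.44), Mcm10 (2.05, or 0.35) and Mcm5 (1.94, or 0.24). Of these 9, Mcm10 and Mcm5 lay within 2 errors of no difference with spike-ins, as did Mcm2 (0.21), Cdt1 (0.03) and Top2a (0.35). The loading factors Orc1, Cdt1 and Cdc6 and the Cdt1 inhibitor Gmnn had differences of 1.41 to 2.71. Those of Cdc6 and Gmnn turned to -0.08 and -0.28 with spike-ins, both within 2 errors of no difference. At the other end Prim2 was 11.2-fold lower in ES cells (-3.49 ± 0.20) at its bright probe, and lower under each scaling tried. With the mean or median of its probes the difference was -1.61, and the dim probe, well above background only in ES cells, gave a bound of at least 0.27 in the opposite direction. At their brightest probes Cdc7, Cdc45, Rpa3 and Rrm1 lay within 2 errors of no difference under the 75th percentile scaling. For Cdc7 the other probes did not: they gave 0.80 ± 0.20 and 1.75 ± 0.32, the latter from signals of 22.7 in p53-null MEF and 76.5 in ES cells, and the mean over all its probes was 0.85. The members on either side of 2-fold were Mcm7 at 1.09 and Gins3 at 0.96, both of which are below 0 with spike-ins.

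**Figure D5:**
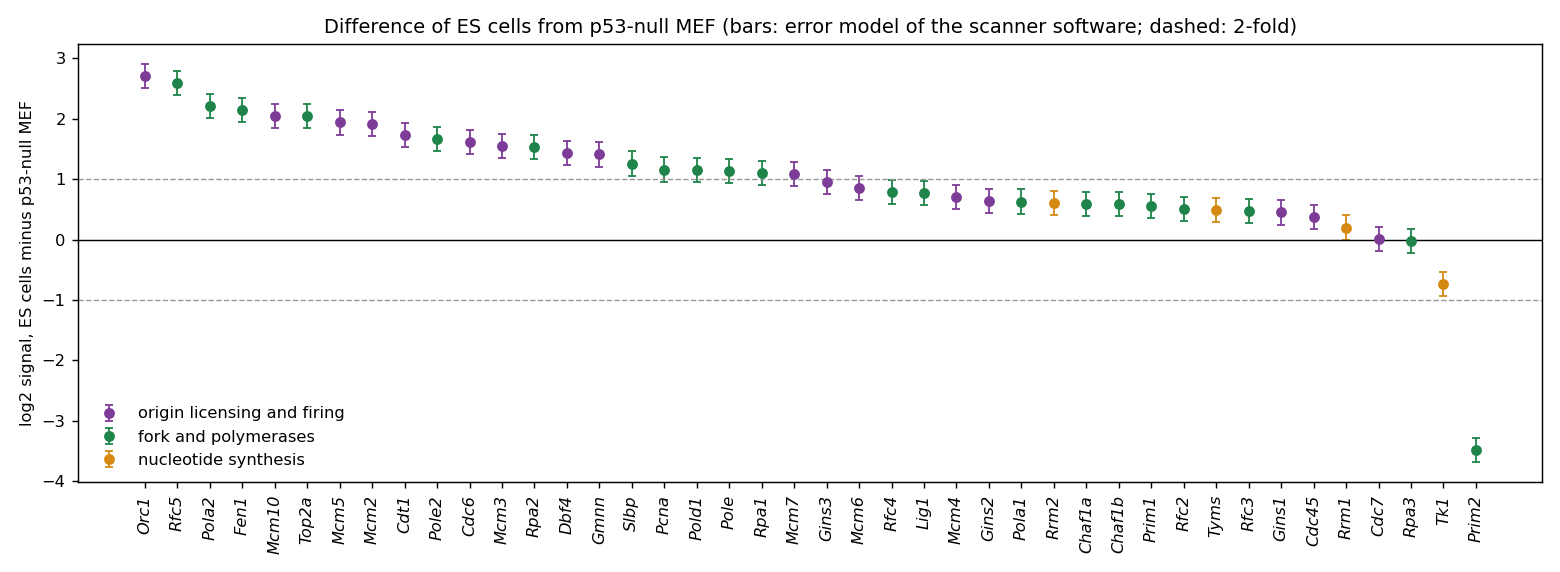
Log2 difference of ES cells from p53-null MEF for the 42 members, sorted, under the 75th percentile scaling; colours are roles, bars the scanner software's error model and dashed lines 2-fold. Orc1 (2.71) and Rfc5 (2.59) are at the top and Prim2 (-3.49) at the bottom; with spike-in scaling only 9 members stay above 0.

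The order ES cells, p53-null MEF, MEF from high to low held for 39 of 42 members under the 75th percentile scaling, and the step between the first pair turned with spike-ins for all but 9. The exceptions were Rpa3 and Tk1, highest in p53-null MEF, and Prim2, lowest in ES cells. The count of 39 includes small steps. Between ES cells and p53-null MEF, Cdc7, Cdc45 and Rrm1 lay within 2 errors of no difference at their brightest probes. Between the fibroblast samples Pola2 and Rpa1 did so. The share of all genes with this order was not counted. The step from MEF up to p53-null MEF had the same sign for all 42 members under each of the scalings tried. These could not have turned it. Median, spike-in and no scaling moved all genes upward in this comparison, and quantile normalization left the member median at 1.86.

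A further 53 genes of replication outside the list were measured for comparison. In p53-null MEF against MEF, 31 of them passed 2-fold upward and 2 downward, with a median of 1.30, lower than the 1.87 of the members. The 5 highest were the histone chaperone Nasp (3.22), the clamp unloader Atad5 (3.17), the alternative clamp loader subunit Dscc1 (2.88), the checkpoint mediator Clspn (2.85) and the nuclease Dna2 (2.68). Nasp had a scaled signal of 39914 in p53-null MEF, 111508 in ES cells and 4287 in MEF. Under the 75th percentile scaling the 5 lowest, all of which turn to positive with spike-ins, were the mitochondrial thymidine kinase Tk2 (-1.43), the small polymerase subunits Pold4 (-1.37) and Pole4 (-0.54), the origin subunit Orc5 (-0.81) and the mitochondrial kinase gene Dguok (-0.25). Tk2 and Tk1, the mitochondrial and cytosolic thymidine kinases, thus lay on opposite sides of MEF under that scaling, though not with spike-ins, where Tk2 was at 0.54: its signal was 420 in p53-null MEF, 905 in ES cells and 1130 in MEF. Pold4 had 705, 382 and 1829. In Orc5 the signal was 166 in p53-null MEF, 2585 in ES cells and 291 in MEF, so that 2 subunits of 1 complex, Orc1 and Orc5, differed in sign between the fibroblast samples under the 75th percentile scaling, but not with spike-ins, where Orc5 was at 1.16. The array held 2 probes for Orc5, and these values come from the brighter alone. It also held 2 probes each for Nasp and Dscc1 and 3 each for Atad5, Dna2 and Pole4. Their values come from the brightest probe, and the agreement of the others was not examined.

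In ES cells against MEF, 44 of these 53 genes passed 2-fold upward and 1 downward (median 2.43). In ES cells against p53-null MEF the counts were 29 and 1 (median 1.14) under the 75th percentile scaling and 2 and 19 (median -0.56) with spike-ins. The E2F strings stood in the windows of 8 of the 45 genes of this list that RefSeq gave (17.8%), between the members (37.1%) and all genes (2.60%).

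Genes outside both lists whose pattern over the 3 arrays was nearest the members' medians were ranked over 14200 genes well above background on all arrays, by the distance of their log2 differences of p53-null MEF and ES cells from MEF. The 10 nearest were Mtif2, Ankrd26, Nr2c2, Usp1, Ahctf1, Luc7l3, Rbm4b, Ldlrad3, Xrcc3 and Hnrnph1, all within 0.11 of the members' pair of medians. With 3 arrays this likeness rests on 2 differences per gene and describes these samples alone.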

How the data were processed

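Per the file headers, Agilent Feature Extraction 9.5.3.1 made the deposited linear spot intensities; it subtracted background and removed spatial and multiplicative trends within an array, with no scaling between arrays. The authors' value table held the same intensities, within ratios of 0.995 to 1.005; its columns had medians of 51.8 (p53-null MEF), 50.0 (ES cells) and 43.2 (MEF), so it carried no log scale or centring, and has no direction.

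Log2 of the processed intensity minus each array's 75th percentile over 43379 non-control spots was used, after 62, 176 and 192 outlier spots were left out (p53-null MEF, ES cells, MEF). Spots of a probe were averaged, and the brightest probe stood for a gene. The 42 members had 62 probes, 51 of them well above background on all arrays. Names came from the files and the RefSeq table of GRCm38.p6 (26180 probes by symbol, 6869 by unique synonym, 389 by accession, 7736 unmatched). Probe positions (mm8) come from the newer design file; exon or UTR was not determined.

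With 1 array per group no replicate test was possible, and the number of arrays limits the precision. Members and lists were chosen with earlier results of these data known. Named with full values were members past 8-fold in p53-null MEF, those nearest no difference, the extremes between ES cells and p53-null MEF, those whose probes disagreed by at least 1 on the log2 scale, and the 5 highest and lowest of 53 other replication genes; values of the remaining members follow by role. Further marker lists, as genes well above background in p53-null MEF, ES cells and MEF, gave 3, 3 and 3 of 5 for endothelium, 3, 5 and 2 of 5 for epithelium, 3, 2 and 3 of 5 for skeletal muscle and 1, 3 and 2 of 3 for the germ line. Alternatives were normexp background correction (limma 3.58.1), median, quantile, spike-in and no scaling, the filter on dim probes, the mean or median of a gene's probes, naming by accession and the value table. Python 3.11.15 with numpy 2.4.6 and pandas 2.3.3 was used, and the calculation was tested on simulated data.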

Additional observations from a re-analysis of the deposited data

How the results depend on the processing

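In p53-null MEF against MEF the member median of 1.87 became 2.20 without scaling and 3.85 with spike-ins, where all genes moved too, and 35 to 42 members were at least 2-fold higher in every setting run. Of all genes, 26.9% were at least 2-fold higher and 11.0% lower without scaling, 78.6% and 1.59% with spike-ins, and 11.9% and 10.9% with normexp. In ES cells against MEF the median of 2.79 became 2.57 with median scaling and 3.07 with spike-ins, with 41 members at least 2-fold higher in each setting; Prim2 was not at least 2-fold lower with the mean or median of its probes. In ES cells against p53-null MEF the median of 1.02 became 0.76 with median scaling, 0.70 without scaling and -0.68 with spike-ins, and the 21 members at least 2-fold higher became 1 with spike-ins; of all genes 20.5% were higher and 29.4% lower without scaling, and 21.5% and 28.4% with median scaling. By the scaling's construction, which takes the same amount from every gene of an array, 12 members called higher there turned: Mcm3 (-0.15), Mcm7 (-0.61), Cdc6 (-0.08), Gmnn (-0.28), Dbf4 (-0.27), Pcna (-0.54), Pole (-0.56), Pole2 (-0.04), Pold1 (-0.55), Rpa1 (-0.59), Rpa2 (-0.16) and Slbp (-0.44). Of these, Mcm3, Cdc6, Gmnn, Dbf4, Pole2 and Rpa2 then lay within 2 errors of no difference. The other settings left 15 to 21 members at least 2-fold higher. Which scaling is nearer to RNA per cell was not tested. No replicate could be left out with 1 array per group. No paired analysis was possible because each group had 1 array and the labels number no replicates. Signal over background did not limit the members, but further probes of Cdc7, Dbf4, Mcm4, Pola2, Pole, Prim2, Rrm1, Top2a and Tyms were too dim in MEF to check the brightest ones there; only Cdc7, Top2a and Tyms among these had another probe well above background there.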
